A study of Ovis aries with 22 samples.

Results

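The 2 native sinus walls compared here are the aortic sinus and the pulmonary sinus of the sheep (Ovis aries), the pouches of arterial wall behind the leaflets of the aortic and the pulmonary valve. The members were taken from the count columns marked as aortic or pulmonary sinus: 16 of the 22 sample entries, which are 8 of the 11 libraries, each sequenced in 2 runs that were added. They are 4 aortic and 4 pulmonary sinus libraries of animals named D3, D4, D5 and D6, 1 of each sinus per animal. Both sinuses were the untreated controls of a study of the pulmonary autograft, in which the pulmonary root is moved into the aortic place (the Ross procedure). The 3 autograft sinus libraries, taken 6 months after that operation, are used here only to estimate the spread between libraries and as a yardstick. The sources used here give no strain and no age, and no agent or transgene is named for any group. The D3 aortic library carries the treatment label "Ross surgery", whereas the design text takes native tissue from animals without an operation. It was kept with the aortic libraries. The comparison asks how alike the 2 native walls are before either is moved.

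The wall of both sinuses is built of smooth muscle cells between elastic lamellae and collagen, lined by endothelium on the inside and wrapped by an adventitia of fibroblasts, fat, nerves and small vessels. Both arise from the embryonic outflow tract, where cells of the neural crest and of the second heart field meet. The pulmonary root lies next to the right ventricle and works at low pressure after birth, while the aortic root works at high pressure.

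Library totals lay between 17408941 and 20741334 counts for the native libraries, which held counts for 17006 to 17771 genes. The defining smooth muscle genes were among the most abundant in all 8: MYH11, the heavy chain of smooth muscle myosin, lay between 12356 and 22730 CPM (depth-normalised counts, scaled by TMM). Markers of endothelium, fibroblasts, fat, nerve and macrophages were present in both sinuses, so each library is a mixture. In such bulk samples, fewer cells of a type and less RNA per cell cannot be told apart. Libraries of 1 group came from separate animals per the labels. The counts of any 2 native libraries lay well outside sampling noise of each other: chi-square per gene was at least 22.1 and reached 108, while the repeat runs of a single library gave 1.38 to 1.51. None was a copy of another.

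Genes that were on in some animals and off in others did not pair the libraries as labelled. Among the 8 native libraries, 52 genes with a mean of at least 1 CPM had a gap of over 2.5 on the log2 scale between a low and a high set of libraries. Of these, 14 separated D5 from D6 in both sinuses, and all 14 gave each animal the same state in its 2 sinuses. TTR, which encodes the thyroid hormone carrier transthyretin, was at 26.7 CPM in the aortic and 43 CPM in the pulmonary library of D5 and between 0.304 and 2.46 CPM in the other 6. SCN7A, an atypical sodium channel gene, was low only in D5, at 1.72 and 1.87 CPM, and lay between 12.7 and 24.9 CPM elsewhere.

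For D3 and D4 the same kind of genes gave the opposite answer. Of the 15 that separated D3 from D4 in both sinuses, 0 gave each animal the same state and all 15 joined the D3 aortic with the D4 pulmonary library and the D4 aortic with the D3 pulmonary library. SDR16C5, a short-chain dehydrogenase gene of retinol metabolism, was at 0 CPM in the D4 aortic and D3 pulmonary libraries and between 3.25 and 7.92 CPM in the other 6. ADGRE2, an adhesion receptor gene of myeloid cells, was at 0 CPM in the D3 aortic and 0.0571 CPM in the D4 pulmonary library, against 4.15 CPM in the D4 aortic and 6.21 CPM in the D3 pulmonary library. In 12 of the 15 genes, D5 and D6 had the same state in both of their sinuses. At these genes the labels D3 and D4 did not match between the sinuses. The values do not tell which of the 4 libraries carry a wrong label, or whether a sinus name is wrong too. The unpaired comparison of the 2 sinuses does not use the animal names, but it does use the sinus names and would be changed by a wrong one. The paired comparisons are given below both as labelled and with the pulmonary libraries of D3 and D4 exchanged, a pairing chosen after seeing the data.

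**Figure D1:**
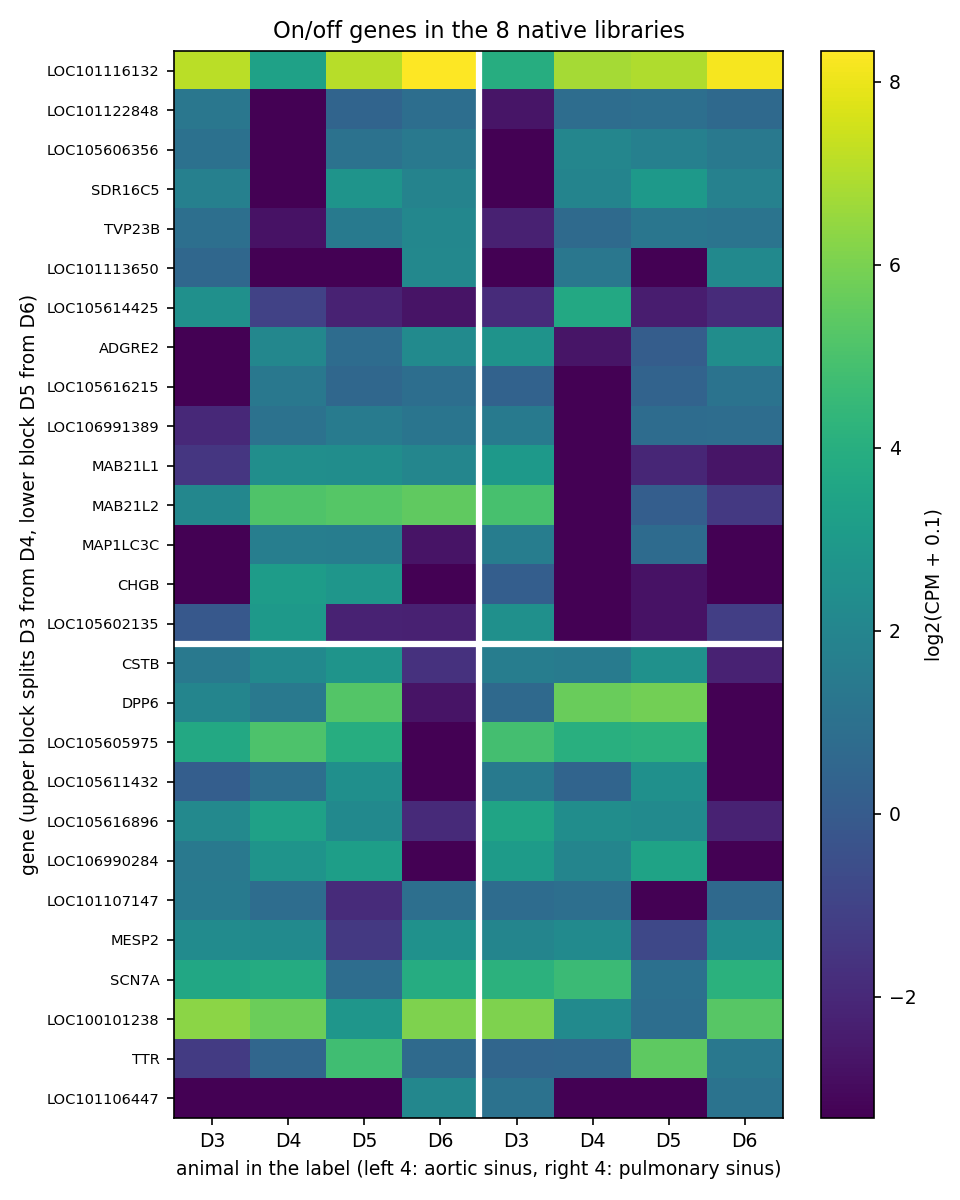
Level of on/off genes (rows) in each native library (columns, 4 aortic then 4 pulmonary), as log2(CPM + 0.1) in colour. The 15 genes above the white line match the aortic library of D3 with the pulmonary library of D4 and the reverse, and the 12 below it, the D5 and D6 genes not already above, match D5 and D6 as labelled.

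The library labelled D3 pulmonary also stood on the aortic side. Without it, the 4 aortic and the 3 other pulmonary libraries did not overlap for 1311 genes with a mean of at least 1 CPM, and at 1155 of these the D3 pulmonary library was nearer to the aortic mean. Its median position was 1.24 on a scale from 0, the mean of the other pulmonary libraries, to 1, the aortic mean. When each of the other 7 libraries was left out in turn, 331 to 581 genes separated the rest, and the library left out was nearer to its own group at 27.2% to 53.5% of them. With the D3 pulmonary library also left out, that share was 32.1% for the D6 pulmonary library and 48.9% to 67.0% for the other 6.

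MAB21L2, a developmental regulator gene picked here after its values were seen, shows the pattern. It was at 4.16, 34.4, 38.6 and 44.4 CPM in the aortic libraries of D3 to D6, and at 30.5, 0, 1.03 and 0.286 CPM in the pulmonary ones. The D3 pulmonary library lay with 3 aortic libraries and the D3 aortic library lay between the 2 sets. No library was moved to another group, and values without the D3 pulmonary library are given for the comparison over all genes and for many of the gene lists and genes below.

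Across all genes, the 2 native sinus walls as labelled were close. Of 14979 genes tested with edgeR's quasi-likelihood test, 0 (0.0%) were called at a Benjamini-Hochberg adjusted p under 0.05, and the lowest adjusted p was 0.999953. At an unadjusted p under 0.05 there were 306 genes (2.04%), 190 higher in aortic and 116 higher in pulmonary sinus. DESeq2 called 0 and had 391 genes at an unadjusted p under 0.05, and limma-voom called 0 and had 330. The median absolute log2 difference was 0.12, or 0.17 without the D3 pulmonary library. It was 0.33 for autograft over pulmonary sinus and 0.28 for autograft over aortic sinus in the same fit, where 1699 and 356 genes were called. These are not like for like: the native groups share their animals per the labels, while the autografts came from other and fewer animals. The part of the animals in the autograft values was not tested.

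An absence of calls does not show likeness, so each gene was also tested for a difference smaller than a set bound, with 2 one-sided tests on its fold change and standard error (SE). The difference was shown to be under 2-fold for 11125 genes (74.3%) and under 1.5-fold for 7395 (49.4%). The median SE was 0.21 on the log2 scale, the 95% interval of the median gene reached 0.46 to either side, and 12200 genes had an interval narrower than 1 to either side. Among the genes not so bounded, 488 (3.26% of those tested) had a fitted difference of over 2-fold. The libraries of the 2 sinuses did not overlap for 107 genes (0.714%) that were higher in aortic and 105 (0.701%) that were higher in pulmonary sinus. Leaving out the D3 pulmonary library also gave 0 calls by edgeR, with a lowest adjusted p of 0.234. Then 870 genes (5.81%) higher in aortic and 377 (2.52%) higher in pulmonary sinus had an unadjusted p under 0.05, and DESeq2 called 152, of which 131 were higher in aortic sinus.

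Distances between whole libraries put the animal beside the sinus. The root mean square log2 difference over all genes was 0.65 to 0.75 between aortic libraries and 0.59 to 0.90 between pulmonary libraries. The aortic and pulmonary libraries were 0.56 apart in D5 and 0.60 in D6, closer than any 2 aortic libraries. The D3 pair was 0.68 apart and the D4 pair 0.90. The closest of all 28 pairs was the D4 aortic with the D3 pulmonary library, at 0.50, while the reverse pair, D3 aortic with D4 pulmonary, was 0.75 apart. Of the spread of a gene over the 8 libraries, the sinus held 12.6% on average, the animal 47.1% and the remainder 40.4%. Shares that followed the degrees of freedom alone would be 14.3% for the sinus and 42.9% for the animal. With D3 and D4 exchanged in the pairing, the animal held 58.8% and the remainder 28.7%.

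**Figure D2:**
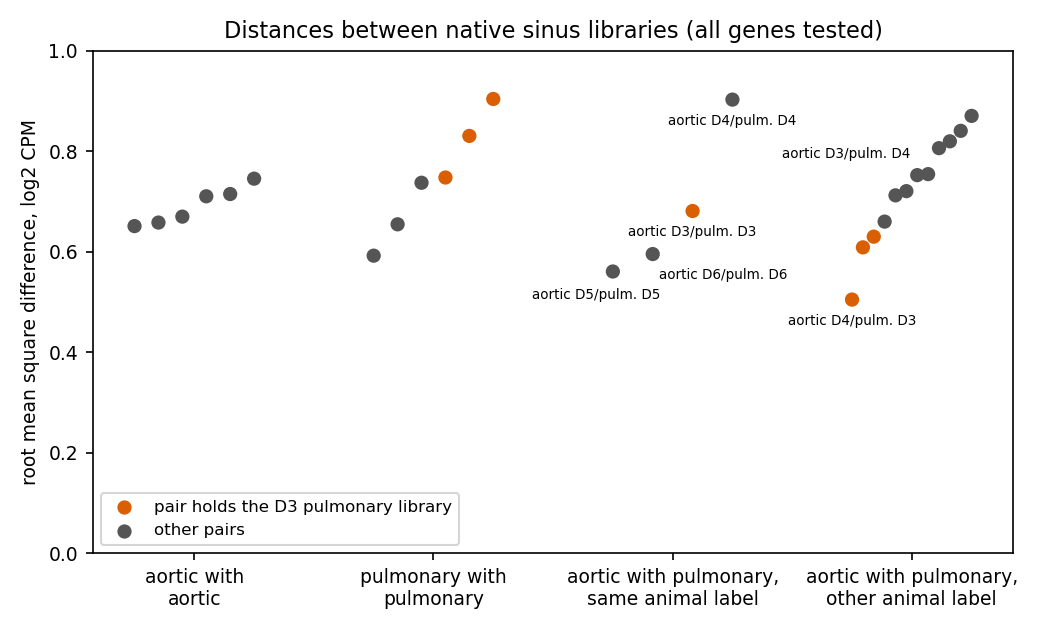
Root mean square difference in log2 CPM over all genes tested, for each of the 28 pairs of native libraries, by kind of pair. Pairs with the D3 pulmonary library are orange: they are the 3 highest among the pulmonary pairs, and with the D4 aortic library they give the lowest point of all, 0.50.

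Genes of the contractile apparatus were close between the walls at the wider bound and less so at the tighter one. Of 26 contractile smooth muscle genes tested, 22 (84.6%) were shown to differ by less than 2-fold, beside 74.3% of all genes, and 7 (26.9%) by less than 1.5-fold, beside 49.4%. None of the 26 was called, with a median log2 aortic over pulmonary of -0.19 against 0.00 over all genes. ACTA2, smooth muscle actin, was at 22842, 16101, 20679 and 15809 CPM in the aortic and 13957, 25168, 19744 and 16518 CPM in the pulmonary libraries. The groups overlapped throughout, and the difference of 0.00 ± 0.26 (SE) was shown to be under 1.5-fold. MYH11 averaged 15064 ± 3434 CPM (SD, n = 4) in aortic and 18298 ± 3854 CPM (SD, n = 4) in pulmonary sinus, and was bounded under 2-fold only. PLN, phospholamban, which restrains the calcium pump of the sarcoplasmic reticulum, averaged 1734 ± 55.7 and 2227 ± 419 CPM. At -0.36 ± 0.15 it had an unadjusted p of 0.0389 (edgeR). The D3 pulmonary library, at 1805 CPM, was level with the highest aortic value of 1802 CPM.

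Matrix genes had medians near 0 for collagens, basement membrane and elastic fibres (0.06, -0.04 and 0.15), but were not bounded more closely than genes at large. The difference was shown to be under 2-fold for 14 of 18 fibrillar and related collagen genes (77.8%), 15 of 19 basement membrane genes (78.9%), 14 of 22 elastic fibre genes (63.6%) and 15 of 35 genes of proteoglycans and matricellular proteins (42.9%), beside 74.3% of all genes. At 1.5-fold these shares were 22.2%, 36.8%, 22.7% and 8.57%, beside 49.4%. EFEMP2, fibulin-4, which is needed for elastic fibre assembly, was at 159, 163, 156 and 169 CPM in aortic and 148, 139, 145 and 129 CPM in pulmonary sinus. All aortic values were above all pulmonary ones, yet the difference of 0.20 ± 0.08 was shown to be under 1.5-fold. FBN2, fibrillin-2, the microfibril protein of developing elastic tissue, leaned the other way, with 31.4 ± 7.74 CPM in aortic and 57.1 ± 20.1 CPM in pulmonary sinus (log2 -0.86 ± 0.36, or -1.08 ± 0.35 without the D3 pulmonary library). Its D4, D5 and D6 pulmonary values, 57.8, 57.2 and 81.2 CPM, were above all aortic values, and the D3 pulmonary value of 32 CPM was among them. COL1A1, a chain of type I collagen, averaged 2021 ± 404 and 1660 ± 336 CPM, a log2 difference of 0.28 ± 0.19.

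Housekeeping lists were bounded most tightly. All 31 ribosomal protein genes and 20 of 22 oxidative phosphorylation genes (90.9%) were shown to differ by less than 1.5-fold, beside 49.4% of all genes. RPL18, a protein of the large ribosomal subunit, averaged 725 ± 28.9 CPM in aortic and 667 ± 76.7 CPM in pulmonary sinus. Of 19 fatty acid oxidation genes, 13 were bounded under 1.5-fold, and of 24 genes of hypoxia and glycolysis, 8.

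Among genes whose libraries did not overlap, those with the smallest p that were higher in aortic sinus were WIF1, NLRC5, PDLIM1, AKIP1, CTSW, ASPHD2, ITGB7 and PARP12, and 0 of the 8 were called. WIF1 encodes a secreted inhibitor that binds Wnt proteins. It was at 116, 80.4, 98.0 and 189 CPM in the aortic libraries of D3 to D6 and at 69.9, 34.8, 33.1 and 11.4 CPM in the pulmonary ones. The groups were apart and the D3 pulmonary library was the nearest to the aortic range. The log2 difference was 1.70 ± 0.44, with a 95% interval of 0.74 to 2.66, an unadjusted p of 0.00292 and an adjusted p of 0.999953 (edgeR). Without the D3 pulmonary library it was 2.18 ± 0.38.

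PDLIM1, a PDZ and LIM domain protein of actin stress fibres, was at 159, 150, 175 and 212 CPM in aortic sinus. In pulmonary sinus it was at 148 CPM in D3 and at 74.7, 55.4 and 83.8 CPM in D4, D5 and D6. The D3 pulmonary value lay beside the lowest aortic one, and the other 3 were far below. AKIP1, which binds protein kinase A, differed least of the 8 in size, with 39.3 ± 1.43 CPM in aortic and 31.4 ± 1.60 CPM in pulmonary sinus. Its difference of 0.32 ± 0.09 was shown to be under 1.5-fold. NLRC5, a transactivator of MHC class I genes, averaged 4.55 ± 1.10 and 2.33 ± 0.453 CPM, and ITGB7, an integrin chain of lymphocytes, 4.36 ± 0.898 and 2.52 ± 0.252 CPM.

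Those higher in pulmonary sinus by the same rule were PWWP2A, BICD1, PLCB1, SGCB, SPATS1, KATNBL1, FAM63B and IGF2BP2, again with 0 called. PLCB1, a phospholipase C that acts below G protein-coupled receptors, was at 64.4, 83.4, 75.6 and 64.5 CPM in aortic and 85.5, 101, 86.9 and 93.8 CPM in pulmonary sinus. The groups were apart by a narrow margin, and the difference of -0.35 ± 0.11 was shown to be under 2-fold. SGCB, beta-sarcoglycan, a membrane protein of the dystrophin complex of muscle, averaged 36.8 ± 7.91 and 51.6 ± 6.71 CPM. BICD1, an adaptor of the dynein motor, averaged 28.4 ± 5.75 and 40.7 ± 4.15 CPM, and IGF2BP2, an mRNA-binding protein, 3.37 ± 0.645 and 6.45 ± 2.16 CPM.

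Regulators of heart and outflow tract development went both ways. Of 41 such transcription factor genes tested, 18 were higher in aortic sinus by value and 0 were called. The mean over the list differed by 0.01 (log2), and the median was -0.09. In the aortic direction 0 had an unadjusted p under 0.05 and in the pulmonary direction 4, beside 190 and 116 of 14979 genes. Within animals as labelled (described below), 2 had an unadjusted p under 0.05 (edgeR) in the aortic and 4 in the pulmonary direction. Over all genes these shares were 2.63% and 1.52%. With D3 and D4 exchanged, a pairing chosen after seeing the data, the counts were 5 and 6, beside 4.97% and 3.12% of all genes. NKX2-5, a homeobox factor of heart muscle and the second heart field, was at 0.507, 0.400, 0.344 and 0.0537 CPM in aortic sinus. In pulmonary sinus it was at 0.113 CPM in D3 and at 1.71, 3.23 and 5.66 CPM in D4, D5 and D6. The last 3 stood above every aortic library while the D3 pulmonary one did not, and the log2 difference was -3.01 ± 1.03 (edgeR, unadjusted p 0.0145), or -3.42 ± 0.86 without that library.

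GATA4, a zinc finger factor of the heart, followed the same order, with 13.5 ± 4.39 CPM in aortic and 22.5 ± 8.0 CPM in pulmonary sinus and the D3 pulmonary library within the aortic range at 12 CPM. The log2 difference was -0.74 ± 0.31, or -0.96 ± 0.27 without that library. ALDH1A2, the enzyme that makes retinoic acid in the embryo, was at 14.6, 9.65, 15.4 and 3.65 CPM in aortic sinus and at 10.3, 35.5, 55.6 and 24.4 CPM in pulmonary sinus. Again only the D3 pulmonary library fell within the aortic range, and the difference was -1.54 ± 0.53, or -1.84 ± 0.48 without it. Among the other 29 genes tested of retinoic acid handling and semaphorin guidance, 0 had an unadjusted p under 0.05 (edgeR).

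HOX genes, which mark position along the body axis, had low counts and wide intervals: 10 of 15 tested were higher in aortic sinus by value, 0 were called, 0 had an unadjusted p under 0.05 in edgeR and 0 were bounded under 1.5-fold. HOXD3 was at 0.254, 1.2, 2.18 and 1.45 CPM in aortic sinus. In pulmonary sinus it was at 1.24 CPM in D3 and at 0.114, 0.281 and 0.114 CPM in D4, D5 and D6. The D3 aortic library was low and the D3 pulmonary library high, the reverse of their groups.

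**Figure D3:**
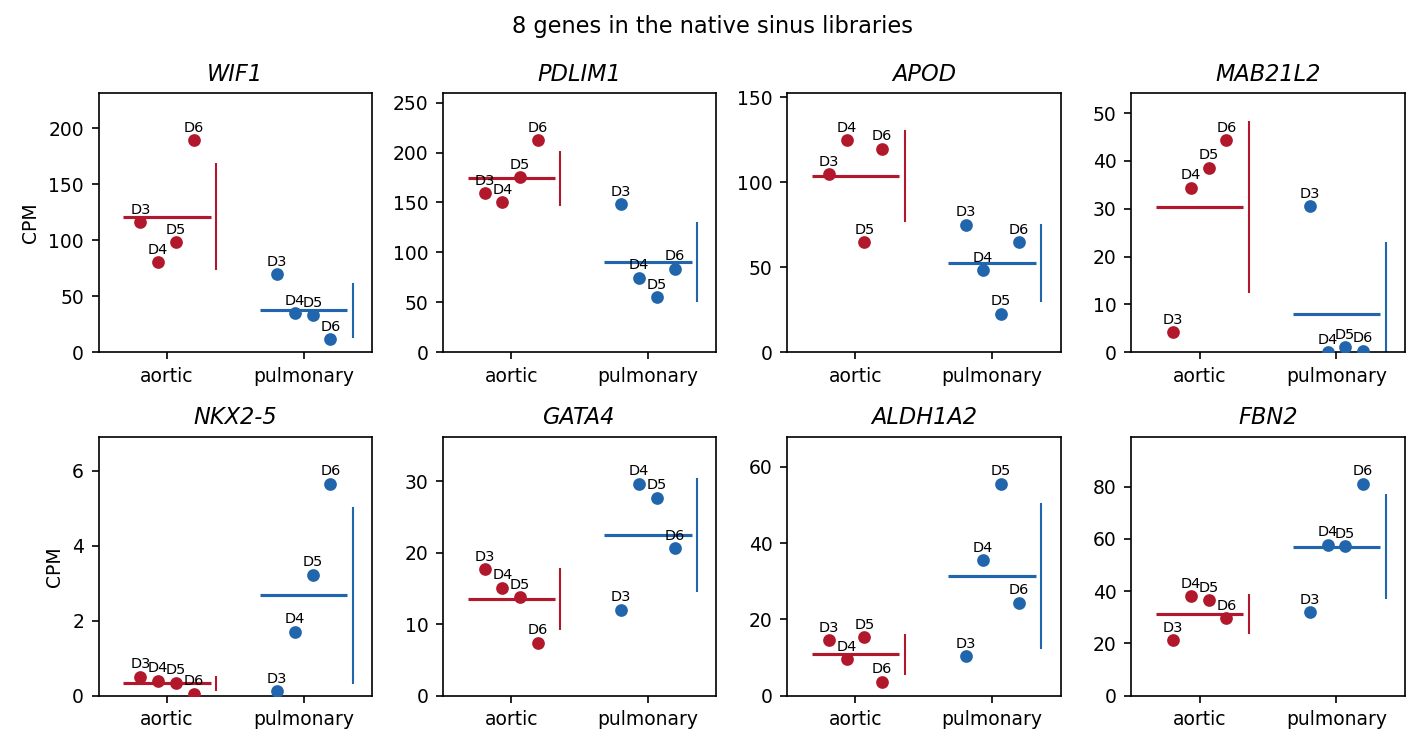
CPM of 8 genes in each native library, named by its animal label, with the mean (horizontal line) and SD (vertical line, cut at 0) of each group of 4. In the upper row (higher in aortic sinus by value) and the lower row (higher in pulmonary sinus by value), the D3 pulmonary library is the pulmonary point nearest to or within the aortic range.

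Signalling genes were mixed. TRPC6, a calcium-permeable channel of smooth muscle, was at 1.07, 2.80, 4.36 and 1.34 CPM in aortic and 2.77, 9.76, 6.61 and 6.17 CPM in pulmonary sinus, a log2 difference of -1.40 ± 0.52. In that direction 3 of 33 ion channel and pump genes, TRPC6 among them, had an unadjusted p under 0.05, beside 116 of 14979 genes. The others were ABCC9, a subunit of the ATP-sensitive potassium channel, at -0.28 ± 0.11, and the sodium-calcium exchanger SLC8A1 at -0.59. WNT11, a Wnt ligand, averaged 9.70 ± 1.97 CPM in aortic and 5.76 ± 1.77 CPM in pulmonary sinus (0.75 ± 0.33). MFNG, the manic fringe enzyme that modifies Notch receptors, averaged 10.9 ± 5.58 and 4.16 ± 2.69 CPM (1.39 ± 0.52, or 1.94 ± 0.49 without the D3 pulmonary library). Of 44 TGF-beta and BMP genes, 31 were bounded under 2-fold and 0 had an unadjusted p under 0.05, and SMAD4, the shared partner of these receptors' signals, differed by -0.25 ± 0.12.

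Vasoactive and growth factor genes leaned to the aortic side by value and mechanical response genes had a median near 0, with 0 called. Of 33 genes for vasoactive receptors and enzymes, 21 were higher in aortic sinus by value (median 0.33), and 0 had an unadjusted p under 0.05 (edgeR). NPR1, the receptor of atrial natriuretic peptide, was at 27.1, 30.3, 35.7 and 36.1 CPM in aortic and 32.4, 10.5, 12.4 and 22.6 CPM in pulmonary sinus. The D3 pulmonary library lay among the aortic ones and the other 3 below them. Of 32 growth factor and IGF genes, 25 were higher by value (median 0.24, 0.55 without the D3 pulmonary library). IGFBP5, a binding protein of insulin-like growth factors, was at 1611, 446, 480 and 1141 CPM in aortic and 732, 497, 345 and 632 CPM in pulmonary sinus, with the D3 and D6 aortic libraries high. Of 24 mechanosensitive targets, 13 were higher in aortic sinus by value and the median was 0.03, while the list mean differed by 0.27 (log2). An unadjusted p under 0.05 was found for 4 in the aortic and 1 in the pulmonary direction, beside 190 and 116 of 14979 genes. The 1 was TEAD1, the DNA-binding partner of YAP, at 115 ± 22.1 CPM in aortic and 154 ± 25.9 CPM in pulmonary sinus (-0.42 ± 0.16), shown to be under 2-fold.

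Genes of smooth muscle in its modulated, less contractile state had a median of 0.19, or 0.31 without the D3 pulmonary library, with 16 of 20 higher in aortic sinus by value. KLF4, a factor linked to that state, was at 31.6, 39.3, 19.0 and 18.6 CPM in aortic and 29.5, 9.13, 12.1 and 18.6 CPM in pulmonary sinus. Its groups overlapped. Of 29 proteases and inhibitors, 22 were higher by value (median 0.27). ADAMTS9, a protease that cleaves versican, averaged 48.9 ± 13.1 CPM in aortic and 34.5 ± 9.43 CPM in pulmonary sinus (0.50 ± 0.24) and was bounded under 2-fold. Among 30 immediate early and heat shock genes, 25 were higher by value with a median of 0.17, which became 0.48 without the D3 pulmonary library. HSPH1, a heat shock protein of the HSP110 family, averaged 101 ± 34.9 and 68.6 ± 20.1 CPM. UCP2, an uncoupling protein of mitochondria, averaged 12.9 ± 7.02 and 6.28 ± 3.65 CPM (1.04 ± 0.47), while CPT1B, the muscle form of the carnitine transferase that admits fatty acids to mitochondria, averaged 2.59 ± 0.652 and 4.49 ± 2.51 CPM (-0.79 ± 0.38).

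Markers of cells other than smooth muscle leaned to the aortic side as groups. All 22 endothelial genes tested were higher in aortic sinus by value, where 7607 of all 14979 genes were. Their median log2 was 0.86, 0 were called, 0 had an unadjusted p under 0.05 (edgeR) and only 1 was bounded under 2-fold. PECAM1, a junction protein of endothelial cells, was at 66.2, 141, 64.6 and 91.2 CPM in the aortic libraries of D3 to D6. In pulmonary sinus it was at 113, 30.2, 30.6 and 30.4 CPM. The last 3 were close together and below every aortic library, and the D3 pulmonary library was above 3 of the 4 aortic ones. The mean log2 CPM of the endothelial list was 3.77, 4.92, 3.71 and 4.0 in aortic and 4.31, 2.85, 2.96 and 2.89 in pulmonary sinus. The summed level of the 22 genes was 457 to 1099 CPM in the aortic libraries, 756 CPM in the D3 pulmonary library and 254 to 272 CPM in the other 3. Without the D3 pulmonary library the median log2 over the list was 1.44. Then 6 of the 22, all higher in aortic sinus, had an unadjusted p under 0.05, beside 5.81% of all genes.

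Adipocyte genes had the same order, with 16 of 17 higher in aortic sinus by value, a median of 0.93 and 0 with an unadjusted p under 0.05 (edgeR). Their summed level was 218 to 687 CPM in aortic libraries, 434 CPM in the D3 pulmonary library and 192 to 199.6 CPM in the other 3. ADIPOQ, the fat hormone adiponectin, was at 61.7, 235, 2.3 and 54.6 CPM in aortic and 114, 1.14, 1.73 and 3.09 CPM in pulmonary sinus. It was high in 3 aortic libraries and the D3 pulmonary one, and low in the D5 aortic library and the other 3. All 21 macrophage genes were higher in aortic sinus by value (median 0.60, 0 with an unadjusted p under 0.05 in edgeR), with a summed level of 229 to 607 CPM in aortic and 148 to 480 CPM in pulmonary libraries. LAPTM5, a lysosomal protein of blood cells, was at 33.4, 58.2, 29.9 and 58.0 CPM in aortic and 53.8, 18.9, 19.96 and 23.4 CPM in pulmonary sinus.

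Of 15 T and NK cell genes, 14 were higher in aortic sinus by value, with the highest median of any list, 1.31 (1.64 without the D3 pulmonary library). Beside 2.04% of all genes, 5 of the 15 had an unadjusted p under 0.05. Their levels were low: IL2RB, a chain of the interleukin-2 receptor, averaged 0.962 ± 0.367 CPM in aortic and 0.380 ± 0.169 CPM in pulmonary sinus. The summed level of the list was 13.4 to 24 CPM in aortic and 7.0 to 16.7 CPM in pulmonary libraries. Interferon and antigen presentation genes were higher by value for 24 of 26, 4 of them with an unadjusted p under 0.05, ISG15 at 3.17 ± 1.21 against 1.42 ± 0.503 CPM among them. Of 11 complement genes, 10 were higher by value. CFD, complement factor D, which fat secretes, averaged 8.63 ± 3.26 and 3.53 ± 1.96 CPM (1.29 ± 0.45).

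Fibroblast and adventitial genes were higher in aortic sinus by value for 23 of 24, with a smaller median of 0.30. An unadjusted p under 0.05 was found for 2, beside 2.04% of all genes. Without the D3 pulmonary library the median was 0.58. Then 8 genes of the list, all higher in aortic sinus, had an unadjusted p under 0.05 (edgeR), beside 5.81% of all genes. APOD, apolipoprotein D, was at 105, 125, 65.0 and 120 CPM in aortic and 75.1, 48.1, 22.7 and 64.9 CPM in pulmonary sinus. The D5 aortic library was low among its group, so the groups overlapped, and the difference was 0.98 ± 0.32 (unadjusted p 0.0121, edgeR). The summed level of the 24 genes was 9200 to 12950 CPM in aortic libraries, while in pulmonary ones it ranged more widely, from 5503 CPM in D4 to 14425 CPM in D3. Of 7 lymphatic endothelial genes 6 were higher by value, and their median of 0.65 became 2.27 without the D3 pulmonary library. Of 27 cell cycle genes, 26 were higher in aortic sinus by value, with a median of 0.26 that became 0.70 without the D3 pulmonary library.

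Smaller cell populations gave few counts. MBP, a protein of myelin sheaths, was at 3.25, 4.10, 2.07 and 1.07 CPM in aortic and 1.07, 1.37, 0.468 and 0.858 CPM in pulmonary sinus. Only the D6 aortic library reached the pulmonary range, and the difference was 1.48 ± 0.50 (unadjusted p 0.0134, edgeR), the 1 such value among 17 Schwann cell and nerve genes, whose median was 0.07. TPSB2, a tryptase of mast cells, averaged 12.1 ± 6.29 and 7.11 ± 2.64 CPM. All 6 mast cell and neutrophil genes tested and all 3 B and plasma cell genes were higher in aortic sinus by value, with 0 called and 0 at an unadjusted p under 0.05 in edgeR.

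1 aortic library stood out for some heart muscle genes. MYL2, the regulatory light chain of ventricular myosin, was at 0.558, 20.7, 0.459 and 0.376 CPM in the aortic libraries of D3 to D6 and between 0 and 0.937 CPM in the pulmonary ones. TNNI3, cardiac troponin I, and MYBPC3, cardiac myosin-binding protein C, were likewise highest in the D4 aortic library, at 19.9 and 15.3 CPM, and reached at most 2.95 and 2.64 CPM elsewhere. Of the 25 genes of the cardiomyocyte list tested, 19 were higher in aortic sinus by value, with a median of 0.72 and 0 called. An unadjusted p under 0.05 (edgeR) was found for 3 in the aortic and 1 in the pulmonary direction. Over all 14979 genes it was found for 190 and 116. The mean log2 CPM of the list was 3.31, 3.99, 2.81 and 2.57 in the aortic libraries of D3 to D6, highest in D4. The summed level of the list, which includes genes that smooth muscle also uses such as ACTC1, went the other way. It was 5534, 2683, 3942 and 3301 CPM in the aortic libraries, lowest in D4, and 3229 to 5961 CPM in pulmonary libraries. The part of these cell type markers in the differences between the sinuses was not tested.

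**Figure D4:**
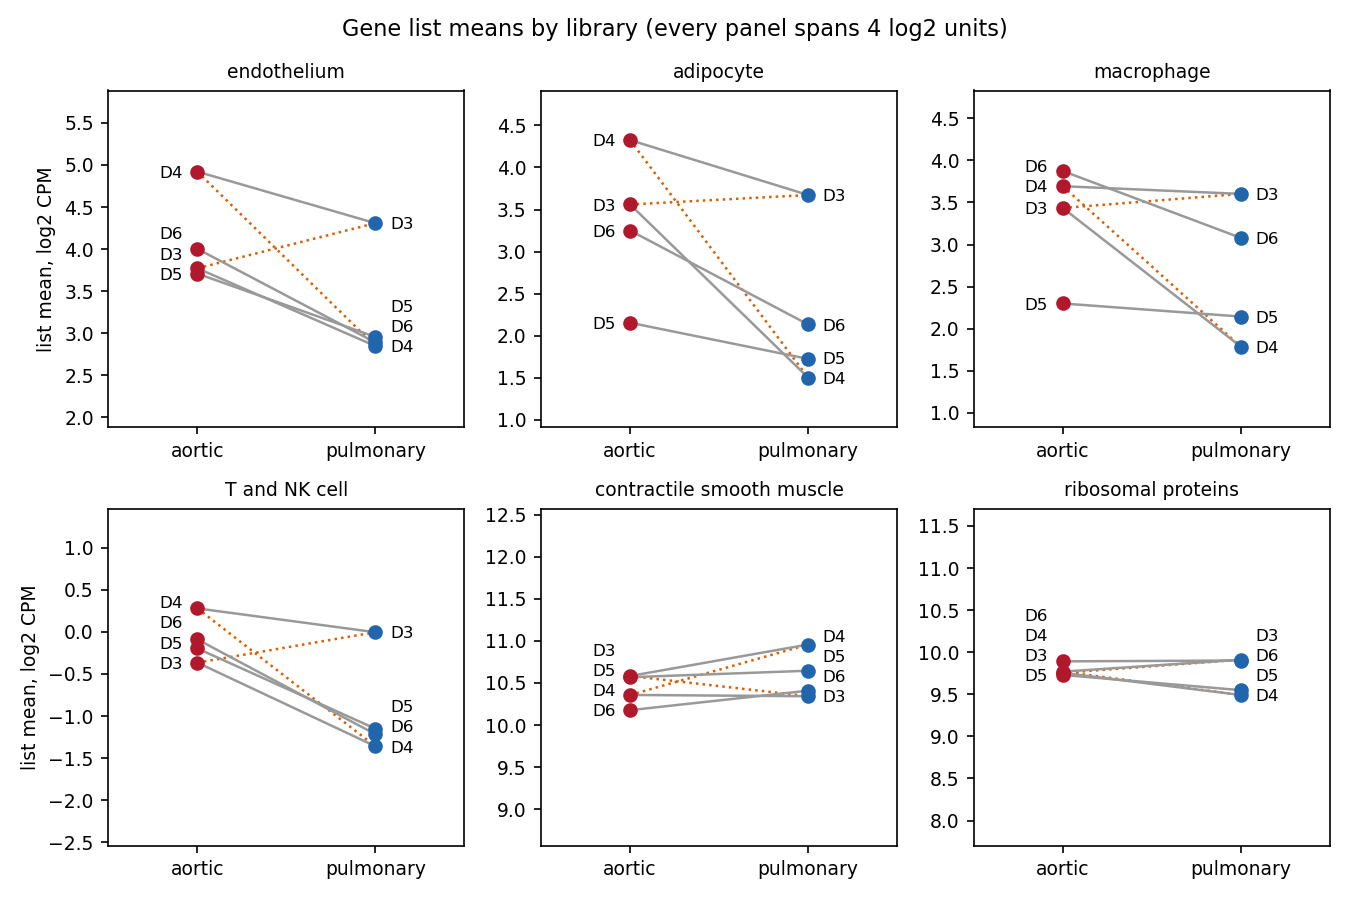
Mean log2 CPM of 6 gene lists in each library, named by animal label. Grey lines join D5 and D6 as labelled and D3 and D4 exchanged, dotted orange lines join D3 and D4 as labelled, and the endothelial lines fall from aortic to pulmonary in all 4 grey pairs, whereas the D3 pair as labelled goes up.

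The lists in order of their medians ran from T and NK cells at 1.31, adipocytes at 0.93 and endothelium at 0.86 down to ion channels at -0.10 and contractile smooth muscle at -0.19. Leaving out the D3 pulmonary library moved the medians of adipocyte genes to 1.53, macrophage genes to 1.0 and complement genes to 1.35. It moved those of contractile smooth muscle only to -0.27 and of ribosomal proteins from 0.06 to 0.10. Genes of proteoglycans and matricellular proteins had a median of 0.19, or 0.44 without that library. Among them CYR61, a matricellular target of mechanical signalling, was at 109, 211, 291 and 919 CPM in aortic and 205, 88.3, 84.6 and 155 CPM in pulmonary sinus. The D6 aortic library alone was far above the rest.

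**Figure D5:**
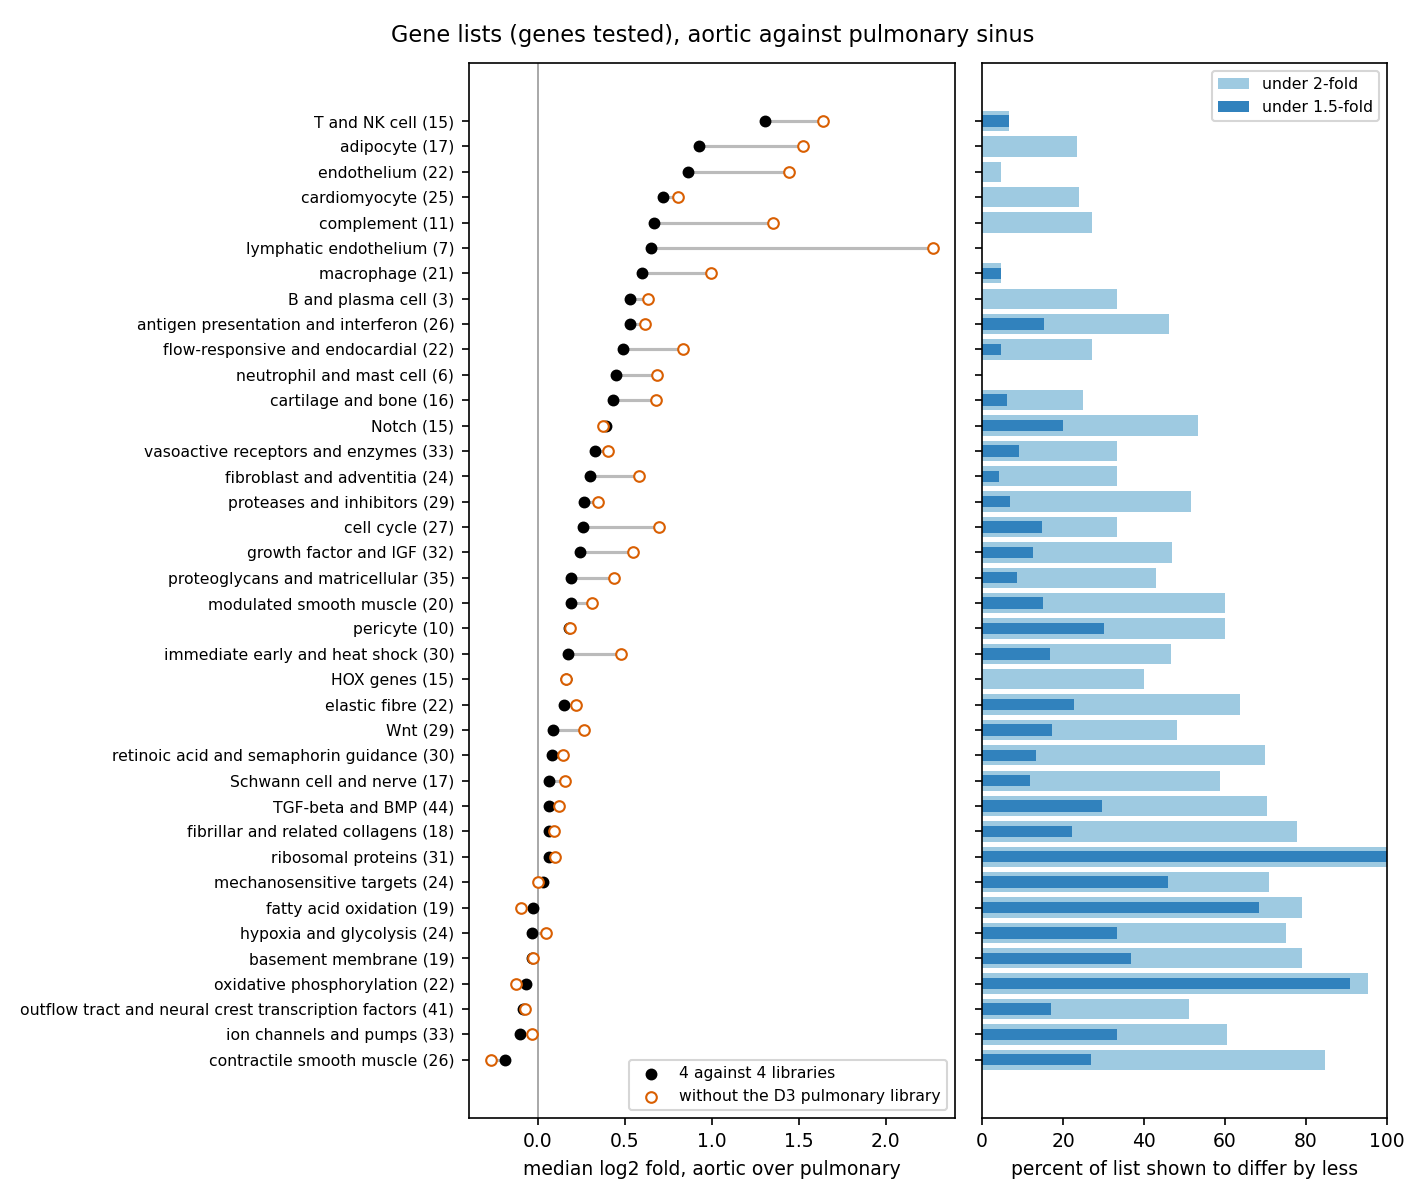
Left, median log2 aortic over pulmonary of each gene list (number of genes tested in brackets) with all 8 native libraries (black) and without the D3 pulmonary library (orange). Right, the percent of each list shown to differ by less than 2-fold and 1.5-fold, which is 100% for ribosomal proteins at both bounds and 0% at 1.5-fold for endothelium.

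Comparing the sinuses within animals gave 0 calls by edgeR as labelled and 0 with D3 and D4 exchanged. As labelled, 394 genes (2.63%) higher in aortic and 228 (1.52%) higher in pulmonary sinus had an unadjusted p under 0.05. With the exchange there were 745 (4.97%) and 468 (3.12%), and the lowest adjusted p was 0.160. The effect of the exchange differed by list. The endothelial list mean differed by -0.54 and 2.07 within D3 and D4 as labelled. It differed by 0.92 and 0.61 when these were exchanged, beside 0.75 in D5 and 1.11 in D6. Not every list had 1 direction in all exchanged pairs. Complement genes differed by 2.40 (D3 aortic) and -0.17 (D4 aortic), beside 0.79 in D5 and 0.84 in D6. Fibroblast and adventitial genes differed by 1.46 and -0.17, beside 0.72 and 0.30. Of the 22 endothelial genes, 4 had an unadjusted p under 0.05 (edgeR) as labelled and 18 in the exchanged pairing. All were in the aortic direction, beside 2.63% and 4.97% of all genes. The exchange was chosen after seeing the data. DESeq2 with the animals as labelled called 31 genes and with the exchange 104, of which 92 were higher in aortic sinus.

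Calls appeared in edgeR once the exchanged pair of the D4 aortic and D3 pulmonary libraries was left out. In the 3 remaining pairs, 139 genes (0.928%) were called higher in aortic and 52 (0.347%) higher in pulmonary sinus, and leaving out any of the other 3 pairs in its place gave 0. These 3 pairs were chosen after seeing the data. Among the genes named above, PDLIM1 was called higher in aortic sinus at 1.35 ± 0.12 (edgeR adjusted p 0.0178), APOD at 1.15 ± 0.13 (0.0298), MFNG at 1.51 ± 0.20 (0.0376) and CFD at 1.74 ± 0.24 (0.0406). ALDH1A2 was called higher in pulmonary sinus at -1.91 ± 0.25 (edgeR adjusted p 0.0376), BICD1 at -0.72 ± 0.10 (0.0405), GATA4 at -1.07 ± 0.15 (0.0428) and FBN2 at -1.20 ± 0.17 (0.0458). Of the 41 outflow tract transcription factors, 2 were called in each direction. WIF1 at 2.37 ± 0.45 and NKX2-5 at -3.40 ± 0.77 were not called (adjusted p 0.086 and 0.10).

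Of the 22 endothelial genes, 10 were called higher in aortic sinus in the 3 pairs, PECAM1 at 1.25 ± 0.11, CDH5, VE-cadherin of endothelial junctions, at 1.38 ± 0.14 and TEK, an angiopoietin receptor, at 1.45 ± 0.13 among them. FABP4, a fatty acid carrier of fat and capillary endothelium, was called at 1.79 ± 0.10. SPP1, osteopontin, was called at 3.24 ± 0.40, from 13.7, 7.06 and 38.6 CPM in the D3, D5 and D6 aortic libraries against 0.400, 1.08 and 5.72 CPM in their pulmonary partners. In the pair left out SPP1 went the other way, at 3.35 CPM in the D4 aortic and 8.25 CPM in the D3 pulmonary library. KDR, a receptor of vascular endothelial growth factor, was called at 1.04 ± 0.14, and NPR1 at 1.17 ± 0.17. ADAMTS9 at 0.78 ± 0.10, HSPH1 at 0.86 ± 0.11 and UCP2 at 1.19 ± 0.16 were called as well, and 14 of the 92 genes named by rule were called in all. The rule picked most of the 92 by small p in the same libraries, so these 14 are no separate evidence. Of the 26 contractile genes, 31 ribosomal genes and 22 oxidative phosphorylation genes, 0 were called in the 3 pairs. Over all genes, 0.928% were called higher in aortic and 0.347% higher in pulmonary sinus, so 0 in lists of this size is near that share. MAB21L2, CD24, SHOX2 and TGM2 were picked after their values were seen. The first 3 were called higher in aortic sinus at 6.01 ± 0.47, 3.46 ± 0.23 and 3.02 ± 0.23. MAB21L2 was among the on/off genes from which the exchange was chosen. In the pair left out it was at 34.4 CPM (aortic) and 30.5 CPM (pulmonary), so its call follows from that choice. CD24 and SHOX2 went the other way in that pair, at 6.85 and 15.9 CPM (aortic) against 13.1 and 27.3 CPM (pulmonary). TGM2, tissue transglutaminase, was called higher in pulmonary sinus at -1.30 ± 0.10. TGM2 was at 362, 479, 481 and 397 CPM in aortic sinus and at 334, 990, 1088 and 933 CPM in pulmonary sinus, where the D3 library was below every aortic one and the other 3 were far above.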

How the data were processed

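Per the labels, RNA of the sinus wall was isolated in TRIzol and sequenced from TruSeq libraries. Of the tools, cutadapt, featureCounts 1.5.3, STAR 2.5.2b and Bowtie2 2.3.3.1 appear in the submitters' processing notes without an order. For the genome build, annotation and strand setting, details were not given in the sources used here. A gene's value may thus include reads of an overlapping or antisense gene or of a close copy. The authors deposited raw whole-number counts for 26200 gene symbols, 1 table per run, and each library is the sum of its runs. The unnamed row was dropped before scaling (up to 0.000522% of counts). The authors also deposited FPKM values, whose making is likewise not stated; they hold no 0 even where the raw count is 0, and served only as an alternative (limma-trend on log2(FPKM + 1) or log2(FPKM + 0.1)).

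Genes were filtered with filterByExpr, libraries scaled by TMM, and all 3 groups fitted together (edgeR 4.0.16 in R 4.3.3, with DESeq2 1.42.0 and limma 3.58.1 as alternatives), with Benjamini-Hochberg adjustment over all 14979 genes. Sharing 1 estimate of the spread with the autografts can widen it for the native groups. Log2 CPM of single libraries has a prior count of 2. Code was tested on simulated data. Animals pair the sinuses per the labels, but deviations from the group means correlated across genes between the sinuses of an animal at -0.18 (D3), -0.13 (D4), 0.43 (D5) and 0.45 (D6), against 0.40 for the D4 aortic with the D3 pulmonary and 0.26 for the D3 aortic with the D4 pulmonary library. Of a sex-linked check list, 0 of 8 symbols were matched, so it gave no check.

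The named genes were, per direction, 8 with the smallest p among genes without overlap between the libraries and with at least 1 CPM in the higher group (called genes first), the 2 of each of 38 gene lists with the smallest p, and the 8 most abundant. The text gives those that show each pattern, and 1 gene under this rule is not reported here. The libraries, gene lists and rule were chosen with earlier results of these data known.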

Additional observations from a re-analysis of the deposited data

Results flagged for a closer look

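Within the 4 libraries of a sinus, a library was singled out when its gap to the nearest of the others divided by the group's whole range, exceeded Dixon's 95% critical value. Of 260 groups of named genes and gene list means, 22 had such a library, and chance flags about 1 in 20 groups. The same libraries recur because genes and lists are not independent.

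The D3 pulmonary library was the highest of its sinus for MFNG (8.19 CPM), ANPEP (3.45 CPM), CFD (6.44 CPM), LAPTM5 (53.8 CPM), HOXD3 (1.24 CPM) and LEP (1.02 CPM), and for the list means of endothelium (4.31 log2 CPM) and of T and NK cells (-0.00437 log2 CPM). The D4 pulmonary library was the highest for EGLN3 (33.7 CPM). In the D5 pulmonary library, SPATS1 (2.72 CPM) and the list mean of outflow tract transcription factors (3.77 log2 CPM) were the highest, and HOXA2 (4.45 CPM) and MMP19 (1.69 CPM) the lowest. SGCB was the highest in the D6 pulmonary library (61.6 CPM).

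The D4 aortic library was the highest of its sinus for MYL2 (20.7 CPM), MYBPC3 (15.3 CPM), MMP19 (15.2 CPM), CXCR4 (5.15 CPM) and the list mean of flow-responsive and endocardial genes (4.81 log2 CPM). The D3 aortic library was the lowest for PWWP2A (13.9 CPM) and SMAD4 (28.2 CPM). SYNPO2 was the highest in the D5 aortic library (1310 CPM).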

How the results depend on the processing

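Of 44 alternatives, 14 were chosen after seeing the data. Genes called numbered 0 in 38 of them, among them RLE and upper-quartile scaling, no filter, a mean of at least 1 CPM, the 2 native groups alone, either run alone, the 3 FPKM analyses and every single library left out in the edgeR fit (0 to 0 called). The replicate block on the animals as labelled gave 0 and, without D3, 23 (17 higher in aortic, 6 in pulmonary sinus); DESeq2 with that block gave 31 (20 and 11). With D3 and D4 exchanged, DESeq2 gave 104 (92 and 12), and edgeR without the D4 aortic and D3 pulmonary libraries gave 191 (139 and 52). The block without both animals, which leaves 2 pairs, gave 273 (202 and 71), and DESeq2 without the D3 pulmonary library gave 152 (131 and 21). Single libraries left out moved the genes bounded under 2-fold between 10382 and 10867 and those under 1.5-fold between 6036 and 6664. The latter numbered 11734 with FPKM + 1, 4021 with the block without D5, and 0 with the block without D6 and without both D3 and D4 and no block, fits with fewer samples; the cause was not tested. Of 4018 values of the 92 named genes under these alternatives, 66 were called, 108 moved by more than the spread between libraries, and 66 in 10 genes had the other sign: ACTA2, CNN1, COL1A1, DES, FLNA, MYH11, MYL2, TAGLN, TPM2 and VIM. The labels D3 and D4, the D3 pulmonary library and 4 animals per sinus limit every value. The 95% interval of the median gene reached 0.46 on the log2 scale to either side. It is not adjusted for the number of genes tested, so a difference had to be larger than that to be called.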
